A study of Mus musculus with 12 samples.

Results

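Integrins and laminins are the receptors and the ligands through which lung cells hold on to their basement membrane. The genes described here are the integrin and laminin subunits on the array: every gene whose symbol in the platform annotation is Itga or Itgb followed by a number (Itga2b and Itgb2l included), Itgad, Itgae, Itgal, Itgam, Itgav or Itgax, or Lama, Lamb or Lamc followed by a number. They came to 36 of the 22180 genes measured, 17 integrin alpha, 9 integrin beta and 10 laminin genes, each read from its 1-symbol probe with the highest mean. The binding proteins Itgb1bp1, Itgb1bp2 and Itgb3bp are no subunits and were left out. Whole lungs of female mice aged 10 weeks were compared in 4 groups of 3 mice, 1 array per mouse. The groups were Zmpste24-/- mice after mechanical ventilation, wild type mice after mechanical ventilation, intact Zmpste24-/- mice (baseline) and intact wild type mice (baseline). Zmpste24 encodes the metalloprotease that trims the farnesylated precursor of lamin A. Ventilated mice of both genotypes received 2.5 hours at 15 cmH2O of inspiratory pressure and 100 breaths per minute, with no end-expiratory pressure and an inspired oxygen fraction of 0.21. Baseline mice were left intact, so ventilation and the procedure that came with it cannot be told apart.

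An integrin is a pair of 1 alpha and 1 beta chain that spans the plasma membrane, binds matrix or a counter-receptor outside the cell and connects to actin through talin and kindlin inside it. The beta chain encoded by Itgb1 pairs with most matrix-binding alpha chains, the one encoded by Itgb2 is confined to leukocytes, and Itgav pairs with several beta chains, of which those of Itgb6 and Itgb8 are known for activating latent TGF-beta. Laminins are trimers of an alpha, a beta and a gamma chain that form the sheet of the basement membrane. In lung, the chain of Lama5 is known from alveolar and airway epithelial basement membranes, that of Lama4 from capillaries, and that of Lama2 from mesenchyme and muscle.

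Values are the deposited log2 values, on which 1 unit is a doubling. Differences are log2 differences ± standard error from limma with n = 3 arrays per group, and a gene passed where its p adjusted over all 22180 genes was under 0.05. Single arrays had medians between 5.35 and 5.42, and arrays correlated across probes at 0.986 to 0.992 within groups and 0.97 to 0.988 between groups. Signal for the deleted gene, Zmpste24, lay between 5.01 and 5.91 in Zmpste24-/- arrays, against 8.5 to 9.28 in wild type arrays. The place of its probe relative to the deletion is not known here. Markers of the alveolar epithelium were high (Sftpc 13.16 and Ager 12.35 on average over the 12 arrays). Of the integrin and laminin genes, 22 passed in at least 1 comparison and 14 in none.

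**Figure D1:**
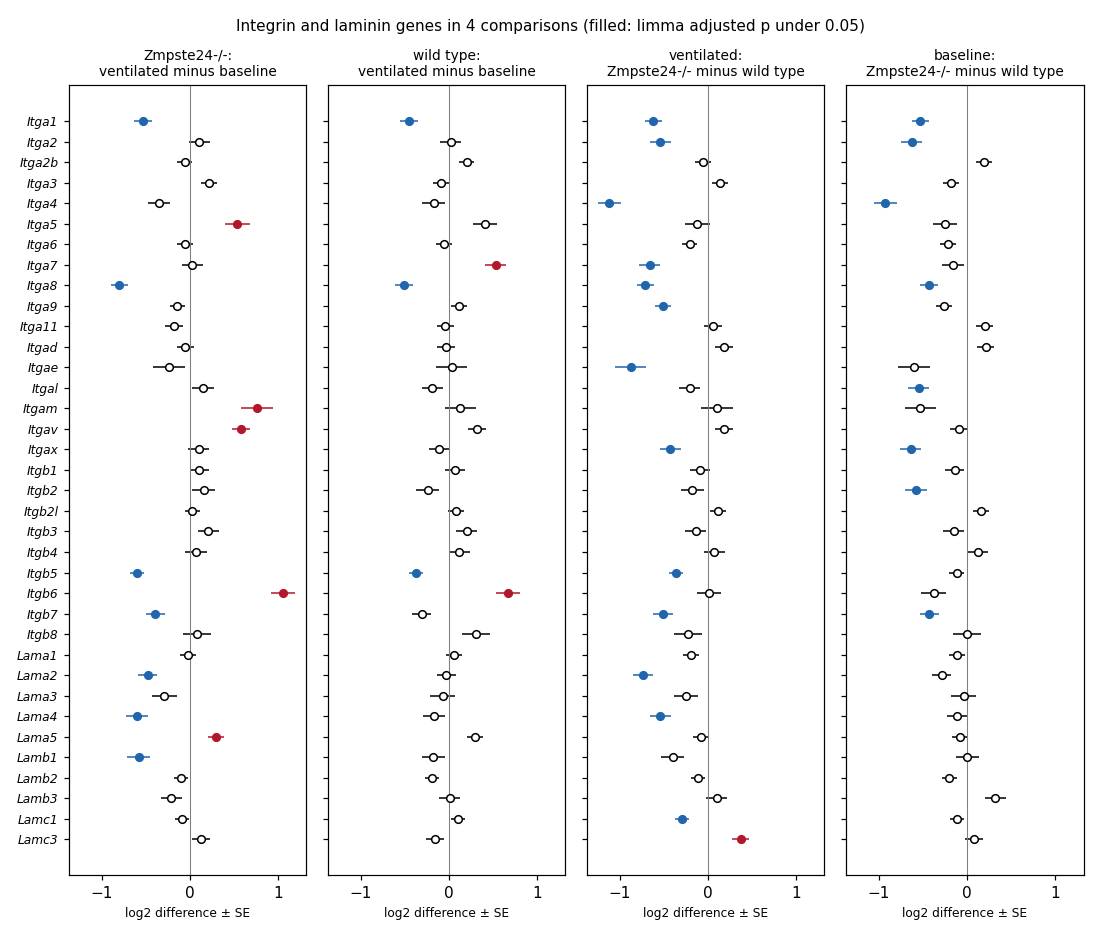
Log2 difference (horizontal axis, bars show the standard error) of each of the 36 integrin and laminin genes (rows) in the 4 pairwise comparisons (panels), with n = 3 arrays per group. Filled points passed an adjusted p of 0.05, red higher and blue lower; the genotype panels hold 21 filled points on the lower side and 1, Lamc3, on the higher side.

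A small set of matrix-binding integrins differed between ventilated and baseline lungs in both genotypes. Itgb6 rose, and Itga8, Itga1 and Itgb5 fell, in ventilated Zmpste24-/- lungs and in ventilated wild type lungs alike. In Zmpste24-/- lungs 12 of the 36 genes passed, 5 higher and 7 lower, where 16.4% of all genes passed, 8.89% higher and 7.52% lower. For wild type lungs 5 passed, 2 higher and 3 lower, where 7.2% of all genes passed, 3.67% higher and 3.53% lower. With array medians subtracted the wild type split over all genes was 681 higher and 883 lower, in place of 815 and 782, and the split of the 5 genes was the same. The 4 shared genes were 33.3% of the 12 and 80% of the 5. The matching overlap over all genes was not counted, so these shares have no background. No array of a ventilated group overlapped with its baseline group in any of these 12 and 5 genes, a combination met by 16.2% and 7.11% of all genes. The median over the 36 genes was -0.04 in Zmpste24-/- lungs and -0.01 in wild type lungs, and -0.01 over all genes in both.

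Itgb6 encodes the epithelial beta chain that, with the chain of Itgav, binds the latent TGF-beta complex. It stood at 8.22, 8.19 and 8.29 in ventilated Zmpste24-/- lungs, against 7.19, 7.24 and 7.10 in Zmpste24-/- baseline lungs. Wild type lungs had 7.87, 8.21 and 8.60 after ventilation, against 7.64, 7.66 and 7.37 at baseline. All 6 ventilated arrays therefore lay above all 6 baseline arrays, and the wild type ventilated arrays were spread most widely. The increase was 1.06 ± 0.14 in Zmpste24-/- lungs (2.08-fold, adjusted p = 0.000234) and 0.67 ± 0.14 in wild type lungs (1.59-fold, adjusted p = 0.0131). Without wild type baseline array 3 the wild type increase was 0.57 and missed the threshold (adjusted p = 0.0543).

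Itgav, the partner chain, stood at 9.51, 9.69 and 9.60 in ventilated Zmpste24-/- lungs, against 9.20, 8.96 and 8.90 in Zmpste24-/- baseline lungs. It rose there by 0.58 ± 0.10 (adjusted p = 0.00107). Wild type lungs had 9.38, 9.53 and 9.37 after ventilation, against 9.12, 9.20 and 8.99 at baseline, a difference of 0.32 ± 0.10 that missed the threshold (adjusted p = 0.0653). The ventilated arrays lay above the baseline arrays in both genotypes. A second probe of Itgav, with a mean of only 4.10, passed in none of the comparisons.

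Itgb5 encodes another beta chain of Itgav, a receptor for vitronectin, and went the opposite way to Itgb6. It stood at 8.81, 8.63 and 8.72 in ventilated Zmpste24-/- lungs, against 9.28, 9.40 and 9.28 in Zmpste24-/- baseline lungs. In wild type lungs it stood at 9.15, 9.08 and 9.0 after ventilation, against 9.48, 9.33 and 9.52 at baseline. Ventilated arrays were below baseline arrays in each genotype. The decrease was -0.60 ± 0.08 in Zmpste24-/- lungs (adjusted p = 0.000309) and -0.37 ± 0.08 in wild type lungs (adjusted p = 0.018). The wild type call was lost without wild type baseline array 1 or 3 or wild type ventilated array 3 (adjusted p = 0.0553, 0.0616 and 0.0818).

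Itga8, which pairs with Itgb1 to bind nephronectin and is known from lung fibroblasts and smooth muscle, stood at 9.47, 9.28 and 9.22 in ventilated Zmpste24-/- lungs, against 10.03, 10.12 and 10.21 in Zmpste24-/- baseline lungs. Wild type lungs had 10.17, 9.99 and 9.94 after ventilation, against 10.67, 10.5 and 10.47 at baseline. The decrease was -0.80 ± 0.10 in Zmpste24-/- lungs (0.575-fold, adjusted p = 9.42e-05) and -0.51 ± 0.10 in wild type lungs (0.701-fold, adjusted p = 0.00593). Each genotype's ventilated arrays lay wholly below its baseline arrays, and the Zmpste24-/- ventilated arrays were the lowest of all.

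Itga1, the alpha chain of a collagen receptor with Itgb1, stood at 9.76, 9.92 and 9.78 in ventilated Zmpste24-/- lungs, against 10.34, 10.22 and 10.49 in Zmpste24-/- baseline lungs. In wild type lungs it stood at 10.32, 10.48 and 10.52 after ventilation, against 11.01, 10.91 and 10.73 at baseline. The decrease was -0.53 ± 0.10 in Zmpste24-/- lungs (adjusted p = 0.00243) and -0.45 ± 0.10 in wild type lungs (adjusted p = 0.0158). The wild type call was lost without wild type baseline array 1 or 2 or ventilated array 1 (adjusted p = 0.06, 0.0519 and 0.0609). Itgb1 itself stood at 10.61, 10.64 and 10.73 in ventilated Zmpste24-/- lungs, 10.62, 10.88 and 10.75 in ventilated wild type lungs, 10.57, 10.48 and 10.59 in Zmpste24-/- baseline and 10.82, 10.8 and 10.43 in wild type baseline lungs, and passed in no comparison. It differed with ventilation by 0.11 ± 0.11 in Zmpste24-/- and 0.07 ± 0.11 in wild type lungs, with 95% intervals of -0.12 to 0.34 and -0.16 to 0.30.

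The 250 bases before the start site are shown for these 4 genes, because they are the ones that passed in both genotypes (RefSeq, GRCm38.p6, 5′ to 3′ on the gene's strand). Capitals mark matches on either strand to an AP-1 site (TGANTCA), a TEAD site (CATTCC), a PU.1 core (GAGGAA) or a GC box (GGGCGG), none of which overlap in these windows. For Itgb6 the first of 2 listed starts is shown. The windows lie at chr2:60722604-60722853 (Itgb6, minus strand), chr13:115101965-115102214 (Itga1, minus strand), chr2:12301945-12302194 (Itga8, minus strand) and chr16:33829415-33829664 (Itgb5, plus strand).
Itgb6: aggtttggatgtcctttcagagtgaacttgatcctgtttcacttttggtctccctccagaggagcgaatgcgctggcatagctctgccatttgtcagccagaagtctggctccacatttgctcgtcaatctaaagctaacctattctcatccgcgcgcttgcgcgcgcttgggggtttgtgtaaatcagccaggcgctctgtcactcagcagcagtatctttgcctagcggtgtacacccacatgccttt
Itga1: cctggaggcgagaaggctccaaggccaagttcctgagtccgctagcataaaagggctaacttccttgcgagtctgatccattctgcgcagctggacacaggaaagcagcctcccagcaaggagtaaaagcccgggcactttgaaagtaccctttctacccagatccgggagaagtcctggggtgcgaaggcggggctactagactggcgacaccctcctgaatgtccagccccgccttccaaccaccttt
Itga8: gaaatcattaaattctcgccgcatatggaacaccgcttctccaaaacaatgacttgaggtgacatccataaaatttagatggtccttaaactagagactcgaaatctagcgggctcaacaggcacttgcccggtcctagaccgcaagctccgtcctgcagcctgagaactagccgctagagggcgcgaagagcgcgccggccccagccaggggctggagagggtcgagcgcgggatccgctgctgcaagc
Itgb5: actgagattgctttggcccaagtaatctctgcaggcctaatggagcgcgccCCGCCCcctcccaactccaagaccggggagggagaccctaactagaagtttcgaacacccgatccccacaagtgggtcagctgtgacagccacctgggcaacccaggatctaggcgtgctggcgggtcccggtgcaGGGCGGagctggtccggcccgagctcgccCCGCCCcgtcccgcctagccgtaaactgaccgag
The window of Itgb5 held 3 GC boxes, and those of Itgb6, Itga1 and Itga8 held none of the 4 motifs. Of the 36 genes, 23 had a promoter in the table. A TGANTCA match was found in 1 of the 23 (Itgax), where 6.87% of all 27025 promoters had one, and a CATTCC match in 1 (Itgb1), where 12.6% had one. GAGGAA was found in 12 of the 23 (23.1% of all promoters) and GGGCGG in 8 (32.9% of all promoters).

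**Figure D2:**
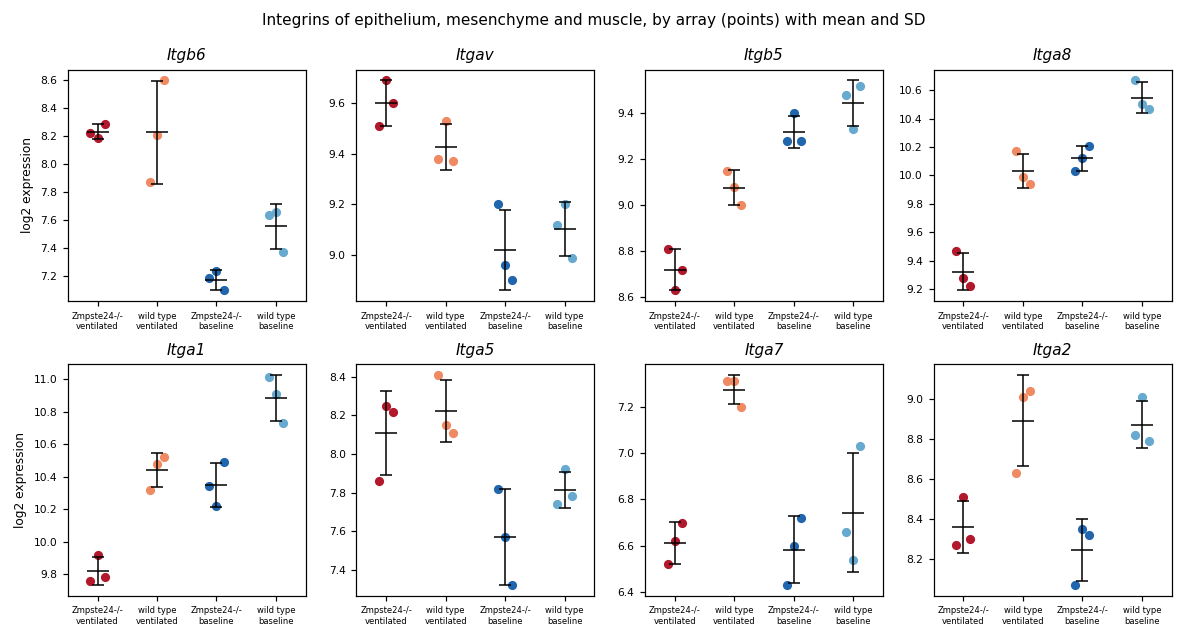
Log2 expression (vertical axis, own scale for each gene) of 8 integrins on each array (points, 3 per group) with group mean and SD (bars), groups from left to right Zmpste24-/- ventilated, wild type ventilated, Zmpste24-/- baseline and wild type baseline. Itgb6 was at 7.87 or more on every ventilated array and at 7.66 or less on every baseline array, whereas Itga8 was lowest in the ventilated Zmpste24-/- group, at 9.22 to 9.47.

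Itga5, the alpha chain of the main fibronectin receptor, rose in Zmpste24-/- lungs. It stood at 7.86, 8.25 and 8.22 after ventilation there, against 7.82, 7.57 and 7.32 at baseline (0.54 ± 0.14, adjusted p = 0.0148). The lowest ventilated array exceeded the highest baseline array by only a small margin. The call was lost when Zmpste24-/- baseline array 3 (adjusted p = 0.0747) or Zmpste24-/- ventilated array 2 or 3 (0.0692 and 0.068) was left out. Its values in wild type lungs were 8.41, 8.15 and 8.11, against 7.74, 7.92 and 7.78, and missed the threshold (0.41 ± 0.14, adjusted p = 0.0935).

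Itga7, the alpha chain of the laminin receptor of muscle, passed in the other genotype. It stood at 7.31, 7.31 and 7.20 in ventilated wild type lungs, against 6.66, 6.54 and 7.03 at baseline (0.53 ± 0.12, adjusted p = 0.0154). In Zmpste24-/- lungs it stood at 6.52, 6.62 and 6.70, against 6.43, 6.60 and 6.72 (0.03 ± 0.12). The wild type call was lost without wild type baseline array 1 or 2 (adjusted p = 0.0544 and 0.0641). Cardiac muscle markers (6 genes, mean log2 value per array) ran at 7.45 to 8.19 in ventilated Zmpste24-/- lungs, 8.49 to 9.95 in ventilated wild type lungs, 7.06 to 9.11 in Zmpste24-/- baseline and 8.48 to 9.29 in wild type baseline lungs. Their part in the result for Itga7 was not tested.

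The ventilation changes of the 2 genotypes use no array in common. Across the 36 genes, which are not independent replicates, they correlated at 0.73 (Pearson) and 0.59 (Spearman), and 25 genes, or 69.4%, had the same sign. Across all 22180 genes the values were 0.62, 0.48 and 64.3%. No integrin or laminin gene passed the test of the difference between genotypes (limma interaction, 0 of 36), where 0.316% of all genes did. An unadjusted p under 0.05 was met by 7 of the 36. The share of all genes at that unadjusted threshold was not counted. The smallest adjusted p was 0.233, for Itga7 (-0.50 ± 0.17, 95% interval -0.86 to -0.14) and Lama2 (-0.45 ± 0.15, -0.77 to -0.13). For Itgb6 the interaction was 0.39 ± 0.20 (-0.05 to 0.83), and for Itga8 it was -0.29 ± 0.14 (-0.58 to 0.01).

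**Figure D3:**
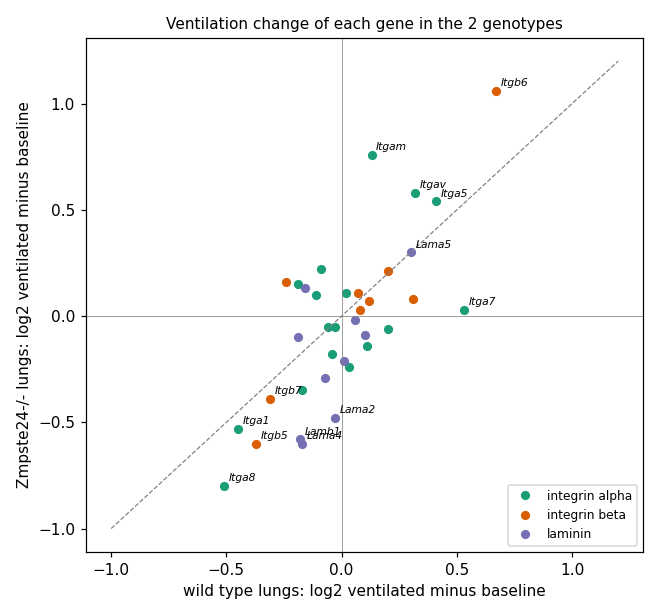
Log2 ventilated minus baseline of the 36 genes in Zmpste24-/- lungs (vertical axis) and wild type lungs (horizontal axis), coloured by family, with the line of equal change dashed and the genes named that passed in either genotype. Itgb6 lies at 1.06 and 0.67 and Itga8 at -0.80 and -0.51, whereas Itgam, Lama2, Lama4 and Lamb1 lie near 0 on the wild type axis, at 0.13, -0.03, -0.17 and -0.18.

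Genotype differences ran mostly one way. At baseline 8 of the 36 genes passed, all lower in Zmpste24-/- lungs, where 6.31% of all genes passed, 2.2% higher and 4.11% lower. Under ventilation 14 passed, 13 of them lower in Zmpste24-/- lungs, where 10.8% of all genes passed, 4.72% higher and 6.08% lower. With array medians subtracted, 11 were lower and 1 higher under ventilation, and 4.39% of all genes were lower (973, with 1528 higher, against 1349 lower and 1046 higher as deposited). The same subtraction at baseline gave 761 genes lower and 540 higher over all genes, in place of 911 and 488. The arrays of the 2 genotypes did not overlap in any of the 8 and 14 genes, a combination met by 6.29% and 10.7% of all genes. The 6 genes that passed in both conditions were Itga1, Itga2, Itga4, Itga8, Itgax and Itgb7, or 75% of the 8 and 42.9% of the 14. Here too the overlap over all genes was not counted. The median over the 36 genes was -0.15 at baseline and -0.20 under ventilation, against -0.01 and 0.01 over all genes. Baseline Zmpste24-/- and baseline wild type arrays also serve the ventilation comparisons, so those differences are not independent of these.

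The largest genotype difference of the 36 genes, in both conditions, was that of a leukocyte integrin. Itga4, whose product pairs with those of Itgb1 and Itgb7 on lymphocytes and monocytes and binds VCAM-1, stood at 7.56, 7.47 and 7.64 in ventilated Zmpste24-/- lungs, against 8.54, 8.89 and 8.59 in ventilated wild type lungs. At baseline it stood at 7.88, 8.08 and 7.76 in Zmpste24-/- lungs, against 9.01, 8.92 and 8.58 in wild type lungs. All 6 Zmpste24-/- arrays were below all 6 wild type arrays. The difference was -1.12 ± 0.13 under ventilation (0.461-fold, adjusted p = 0.000243) and -0.93 ± 0.13 at baseline (0.524-fold, adjusted p = 0.00135). It passed with each array left out. A probe annotated to both Cerkl and Itga4, with a mean of only 4.66, passed in none of the comparisons. Its genotype differences were -0.16 under ventilation and 0.09 at baseline.

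Itgb7, the beta chain of the mucosal homing receptors, stood at 6.44, 6.42 and 6.44 in ventilated Zmpste24-/- lungs, against 6.97, 6.88 and 6.98 in ventilated wild type lungs (-0.51 ± 0.11, adjusted p = 0.0103). At baseline it stood at 6.98, 6.86 and 6.64 in Zmpste24-/- lungs, against 7.47, 7.03 and 7.26 in wild type lungs (-0.43 ± 0.11, adjusted p = 0.0361). Its ventilation decrease in Zmpste24-/- lungs, -0.39 ± 0.11, also passed (adjusted p = 0.0278). The last 2 calls were not firm. The baseline call was lost without wild type baseline array 1 or 3 (adjusted p = 0.124 and 0.0755), Zmpste24-/- baseline array 2 or 3 (0.0721 and 0.156) or Zmpste24-/- ventilated array 2 or 3 (0.0527 and 0.0511), and with array medians subtracted (0.052). The ventilation call was lost without Zmpste24-/- baseline array 1 or 2 (0.113 and 0.0807) or Zmpste24-/- ventilated array 1, 2 or 3 (0.0637, 0.0802 and 0.077).

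Itgae, whose product pairs with that of Itgb7 on intraepithelial T cells and some dendritic cells and binds E-cadherin, stood at 5.51, 5.31 and 4.91 in ventilated Zmpste24-/- lungs, against 5.76, 6.42 and 6.19 in ventilated wild type lungs. It was lower by -0.88 ± 0.18 there (adjusted p = 0.00672). At baseline it stood at 5.63, 5.49 and 5.35, against 6.33, 5.87 and 6.08, and the difference missed the threshold (-0.60 ± 0.18, adjusted p = 0.0636). The 2 genotypes did not overlap in either condition. Some Zmpste24-/- arrays lay under the array medians, and with no background level to go by the true size may differ.

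Itgb2 and 2 of its partner chains passed at baseline. Itgax, known from alveolar macrophages and dendritic cells, stood at 7.35, 7.51 and 7.31 in Zmpste24-/- baseline lungs, against 7.90, 8.02 and 8.18 in wild type baseline lungs (-0.64 ± 0.12, adjusted p = 0.00686). Itgal, the alpha chain of the lymphocyte receptor for ICAM-1, stood at 7.49, 7.73 and 7.29, against 8.19, 7.94 and 8.04 (-0.55 ± 0.12, adjusted p = 0.0128). Itgb2, their shared beta chain, stood at 8.71, 9.18 and 8.71, against 9.42, 9.59 and 9.32 (-0.58 ± 0.13, adjusted p = 0.0184). The Zmpste24-/- arrays lay below the wild type arrays in each of these genes. The call of Itgal was lost when wild type baseline array 1 or Zmpste24-/- baseline array 3 was left out (adjusted p = 0.0515 and 0.0613). That of Itgb2 was lost without wild type baseline array 2 or Zmpste24-/- baseline array 1 or 3 (0.0732, 0.0716 and 0.0859). Under ventilation Itgax was again lower (-0.43 ± 0.12, adjusted p = 0.034), but not with array medians subtracted (0.0634) or under quantile normalization (0.0605), nor without wild type ventilated array 2 or 3 (0.0583 and 0.143) or Zmpste24-/- ventilated array 2 or 3 (0.107 and 0.132). Itgal and Itgb2 differed by -0.21 ± 0.12 and -0.18 ± 0.13 under ventilation and did not pass.

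Itgam, the alpha chain of the complement receptor of neutrophils and macrophages, passed as higher with ventilation in Zmpste24-/- lungs. It stood at 7.88, 8.32 and 8.20 in ventilated Zmpste24-/- lungs, against 7.38, 7.64 and 7.12 in Zmpste24-/- baseline lungs, and rose by 0.76 ± 0.18 (1.69-fold, adjusted p = 0.0114). Its values in wild type lungs were 8.13, 8.13 and 7.85 after ventilation, against 8.28, 7.91 and 7.51 at baseline, with overlapping arrays (0.13 ± 0.18). The interaction was 0.62 ± 0.26 and did not pass (adjusted p = 0.358). At baseline its genotype difference was -0.53 ± 0.18 and missed the threshold (adjusted p = 0.111), and under ventilation it was 0.10 ± 0.18. Leaving out baseline array 3 or ventilated array 2 of the Zmpste24-/- mice ended the call (adjusted p = 0.0584 and 0.0551). Of all genes 8.89% were higher with ventilation in Zmpste24-/- lungs and 3.67% in wild type lungs. Neutrophil markers rose in 7 of 10 genes in ventilated Zmpste24-/- lungs and in 3 of 10 in ventilated wild type lungs. Their mean per array ran from 7.57 to 7.71 and from 6.61 to 7.08 in these groups, against 6.18 to 6.87 in Zmpste24-/- baseline and 5.92 to 6.41 in wild type baseline lungs. The neutrophil markers Ly6g, Camp and Ngp averaged 4.38, 4.05 and 4.70 over the arrays, under the array medians. The part of neutrophil number in the result for Itgam was not tested.

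Lymphocyte markers were lower in Zmpste24-/- lungs in both conditions, as were Itga4 and Itgb7. Itgax was also lower in both, whereas Itgal and Itgb2 passed at baseline and did not pass under ventilation, Itgae the reverse, and Itgam passed in neither. T and NK cell markers were lower in Zmpste24-/- lungs in 8 of 11 genes under ventilation and 7 of 11 at baseline. B cell markers were lower in 5 of 5 and 4 of 5, where 6.08% and 4.11% of all genes were lower. The T and NK cell mean per array ran from 5.69 to 5.77 in ventilated Zmpste24-/- lungs, against 6.35 to 6.54 in ventilated wild type lungs. At baseline it ran from 5.85 to 6.15 in Zmpste24-/- lungs, against 6.78 to 6.96 in wild type lungs. The B cell mean ran from 6.62 to 7.0 against 7.44 to 8.15 under ventilation, and from 7.21 to 7.63 against 7.97 to 8.53 at baseline, Zmpste24-/- lungs first in each pair. Of these markers Klrb1c and Eomes averaged 4.47 and 5.04, under the array medians. In whole lung, fewer cells of a type and less RNA per cell cannot be told apart, and the part of lymphocyte number in the differences of Itga4, Itgb7, Itgae and Itgal was not tested. For genotype, lung macrophage markers gave 0 higher and 1 lower of 8 at baseline, and 1 higher and 0 lower under ventilation. Monocyte and dendritic cell markers gave 1 higher and 1 lower of 8 at baseline, and 0 higher and 1 lower under ventilation. Over all genes 6.31% passed at baseline and 10.8% under ventilation. The part of macrophages, monocytes and dendritic cells in the difference of Itgax was not tested.

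**Figure D4:**
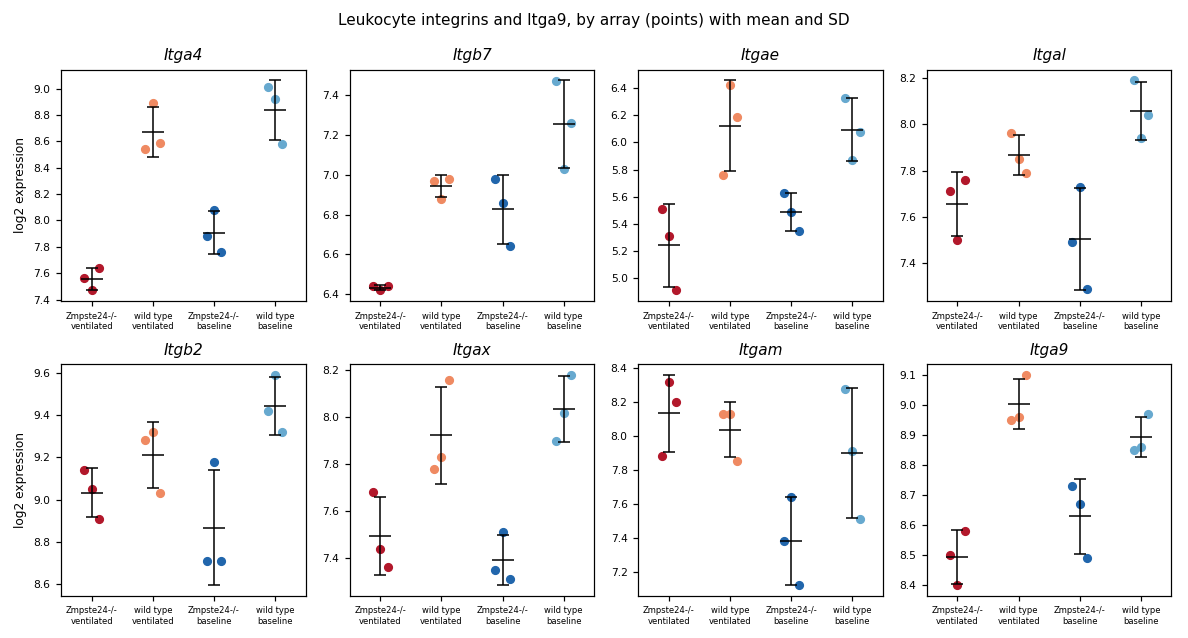
Log2 expression (vertical axis, own scale for each gene) of 7 leukocyte integrins and Itga9 on each array (points, 3 per group) with group mean and SD (bars), groups in the order Zmpste24-/- ventilated, wild type ventilated, Zmpste24-/- baseline, wild type baseline. Itga4 was at 8.08 or less on every Zmpste24-/- array and at 8.54 or more on every wild type array, whereas Itgam reached 7.88 to 8.32 in ventilated Zmpste24-/- lungs, against 7.12 to 7.64 in Zmpste24-/- baseline lungs.

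Itga2, another collagen receptor chain, stood at 8.27, 8.51 and 8.30 in ventilated Zmpste24-/- lungs, against 8.63, 9.01 and 9.04 in ventilated wild type lungs. At baseline it stood at 8.07, 8.35 and 8.32 in Zmpste24-/- lungs, against 8.82, 9.01 and 8.79 in wild type lungs. All Zmpste24-/- arrays lay below all wild type arrays. The difference was -0.54 ± 0.12 under ventilation (adjusted p = 0.0133) and -0.63 ± 0.12 at baseline (adjusted p = 0.00881), whereas ventilation changed Itga2 by 0.11 ± 0.12 in Zmpste24-/- and 0.02 ± 0.12 in wild type lungs. Leaving out ventilated array 2 or 3 of the wild type mice ended the call under ventilation (adjusted p = 0.0624 and 0.0633), as did leaving out Zmpste24-/- ventilated array 1 or 3 (0.0533 and 0.0539). The cells that carry Itga2 were not identified, and the part of lymphocyte or other cell number in its difference was not tested.

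Itga1 and Itga8, both lowered by ventilation, were also lower in Zmpste24-/- lungs in both conditions, by -0.62 ± 0.10 and -0.71 ± 0.10 under ventilation (adjusted p = 0.00188 and 0.000617) and by -0.53 ± 0.10 and -0.43 ± 0.10 at baseline (adjusted p = 0.00724 and 0.0187). The baseline call of Itga8 was lost without wild type baseline array 1 or Zmpste24-/- baseline array 1 (adjusted p = 0.0709 and 0.0689). Their lowest group means were those of ventilated Zmpste24-/- lungs and their highest those of wild type baseline lungs. Fibroblast markers were lower after ventilation in 4 of 10 genes in Zmpste24-/- and 3 of 10 in wild type lungs. Their mean per array ran from 8.10 to 8.11 in ventilated Zmpste24-/- lungs, 8.41 to 8.57 in ventilated wild type lungs, 8.39 to 8.60 in Zmpste24-/- baseline and 8.62 to 8.92 in wild type baseline lungs. Endothelial markers were lower after ventilation in 9 of 12 and 10 of 12 genes, with means per array of 9.33 to 9.47 and 9.55 to 9.64 in the same ventilated groups, against 9.75 to 9.87 and 10.08 to 10.18 in the baseline groups. For genotype, fibroblast markers were lower in 3 of 10 genes and higher in 1 (Tcf21) under ventilation, and lower in 3 of 10 at baseline. Endothelial markers were lower in 4 of 12 genes and higher in 1 (Gpihbp1, by 0.42) under ventilation, and lower in 6 of 12 at baseline. In the fibroblast list, Lum averaged 4.51 over the arrays, under the array medians. Smooth muscle and pericyte markers were lower after ventilation in 0 of 8 genes in Zmpste24-/- and 1 of 8 in wild type lungs. Their list medians were -0.25 and 0.10. Of all genes 7.52% and 3.53% were lower after ventilation in Zmpste24-/- and wild type lungs. For genotype 6.08% and 4.11% of all genes were lower under ventilation and at baseline. The part of these marker lists in the differences of Itga1 and Itga8 was not tested.

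Under ventilation 3 further integrin genes were lower in Zmpste24-/- lungs. Itga9, whose product pairs with that of Itgb1 and binds tenascin-C, stood at 8.5, 8.4 and 8.58, against 8.95, 8.96 and 9.10 in wild type lungs (-0.51 ± 0.09, adjusted p = 0.00257). Itga7 stood at 6.52, 6.62 and 6.70, against 7.31, 7.31 and 7.20 (-0.66 ± 0.12, adjusted p = 0.00338). Itgb5 was lower by -0.36 ± 0.08 (adjusted p = 0.0162), a call that was lost without wild type ventilated array 2 or Zmpste24-/- ventilated array 2 or 3 (adjusted p = 0.0522, 0.07 and 0.0531). No array of one genotype overlapped with the other in these genes. Itgb6 did not differ beyond its spread, at 0.01 ± 0.14 under ventilation (95% interval -0.30 to 0.32), and missed the threshold at baseline (-0.38 ± 0.14, adjusted p = 0.139). Of all genes 6.08% were lower in Zmpste24-/- lungs under ventilation and 4.11% at baseline. Smooth muscle and pericyte markers were lower there in 3 of 8 genes under ventilation and 1 of 8 at baseline. Their mean per array ran from 8.13 to 8.34 in ventilated Zmpste24-/- lungs, 8.62 to 9.63 in ventilated wild type lungs, 8.13 to 8.90 in Zmpste24-/- baseline and 8.87 to 9.09 in wild type baseline lungs, and their part in the result for Itga7 was not tested.

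Laminin genes passed in comparisons that include ventilated Zmpste24-/- lungs. They were 4 of 10 for ventilation in that genotype and 4 of 10 for genotype under ventilation. In limma 0 of 10 passed for ventilation in wild type lungs and for genotype at baseline. Over all genes 16.4%, 10.8%, 7.2% and 6.31% passed in these comparisons, so 0 of 10 in the last 2 says little about laminins. In those 2, an unadjusted p under 0.05 was met by 2 and 3 laminin genes. The share of all genes at that unadjusted threshold was not counted. Lama2 stood at 7.47, 7.36 and 7.51 in ventilated Zmpste24-/- lungs, against 8.09, 8.24 and 8.21 in ventilated wild type lungs, 8.09, 7.91 and 7.79 in Zmpste24-/- baseline and 8.42, 8.15 and 8.07 in wild type baseline lungs. The 3 ventilated Zmpste24-/- arrays were the lowest of the 12. Lama2 fell with ventilation in Zmpste24-/- lungs (-0.48 ± 0.11, adjusted p = 0.00619) and was lower than in ventilated wild type lungs (-0.74 ± 0.11, 0.601-fold, adjusted p = 0.000897).

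Lama4 stood at 8.67, 8.45 and 8.51 in ventilated Zmpste24-/- lungs, against 8.89, 9.31 and 9.06 in ventilated wild type lungs, 9.23, 9.14 and 9.05 in Zmpste24-/- baseline and 9.47, 9.22 and 9.07 in wild type baseline lungs. Here too the ventilated Zmpste24-/- arrays lay below all others. It fell with ventilation in Zmpste24-/- lungs by -0.60 ± 0.12 (adjusted p = 0.0042) and was lower than in ventilated wild type lungs by -0.54 ± 0.12 (adjusted p = 0.0119). The second call was lost without wild type ventilated array 2 or Zmpste24-/- ventilated array 2 (adjusted p = 0.0583 and 0.0505). Its ventilation difference in wild type lungs was -0.17 ± 0.12.

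Lamb1, the beta chain that joins Lama2 and Lama4 products in trimers, stood at 8.52, 8.29 and 8.24 in ventilated Zmpste24-/- lungs, against 9.07, 9.0 and 8.72 in Zmpste24-/- baseline lungs (-0.58 ± 0.13, adjusted p = 0.00761). In wild type lungs it stood at 8.58, 8.95 and 8.72 after ventilation, against 9.15, 8.80 and 8.83 at baseline, with overlapping arrays (-0.18 ± 0.13). Its genotype difference under ventilation, -0.40 ± 0.13, missed the threshold (adjusted p = 0.0696). The interactions of Lama4 and Lamb1 were -0.43 ± 0.17 and -0.40 ± 0.19 and did not pass (adjusted p = 0.342 and 0.418), so a genotype-specific decrease of these chains was not shown. The mean levels of the fibroblast and endothelial markers given above were also lowest in ventilated Zmpste24-/- lungs, but the fibroblast list was mixed, with a median genotype difference under ventilation of -0.05. Its members Col1a1, Col1a2 and Lum were lower (-1.72, -1.46 and -0.98, with Lum under the array medians on average), Tcf21 was higher (0.73) and Pdgfra was at 0.01. The part of these cell types in the laminin results was not tested.

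Lama5 went up where Lama2, Lama4 and Lamb1 went down. It stood at 8.63, 8.89 and 8.88 in ventilated Zmpste24-/- lungs, against 8.56, 8.48 and 8.45 in Zmpste24-/- baseline lungs (0.30 ± 0.09, 1.23-fold, adjusted p = 0.0349). Its values in wild type lungs were 8.95, 8.76 and 8.94, against 8.61, 8.52 and 8.61 (0.30 ± 0.09, adjusted p = 0.0614). The differences were equal to 2 decimals and lay on either side of the threshold. The Zmpste24-/- call was lost under quantile normalization (0.21, adjusted p = 0.128) and without Zmpste24-/- baseline array 2 or 3 (0.0929 and 0.112) or ventilated array 2 or 3 (0.14 and 0.136).

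Both gamma chain genes analysed here passed for genotype under ventilation, in opposite directions. Lamc1, the common gamma chain, stood at 9.22, 9.16 and 9.17 in ventilated Zmpste24-/- lungs, against 9.39, 9.58 and 9.47 in ventilated wild type lungs (-0.30 ± 0.08, adjusted p = 0.0303). Lamc3 stood at 6.67, 6.84 and 6.91, against 6.47, 6.42 and 6.42 (0.37 ± 0.10, adjusted p = 0.0364), and was the only integrin or laminin gene that passed as higher in Zmpste24-/- lungs in either condition. The arrays of the 2 genotypes did not overlap in either gene, but both calls depended on single arrays. For Lamc1 the call ended when wild type ventilated array 2 or 3 was left out (adjusted p = 0.126 and 0.077) or Zmpste24-/- ventilated array 1, 2 or 3 (0.0611, 0.091 and 0.0902), and with array medians subtracted (0.0737). For Lamc3 it ended when any wild type ventilated array was left out (0.0558, 0.104 and 0.102), and likewise without Zmpste24-/- ventilated array 2 or 3 (0.105 and 0.136) or Zmpste24-/- baseline array 3 (0.0509).

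**Figure D5:**
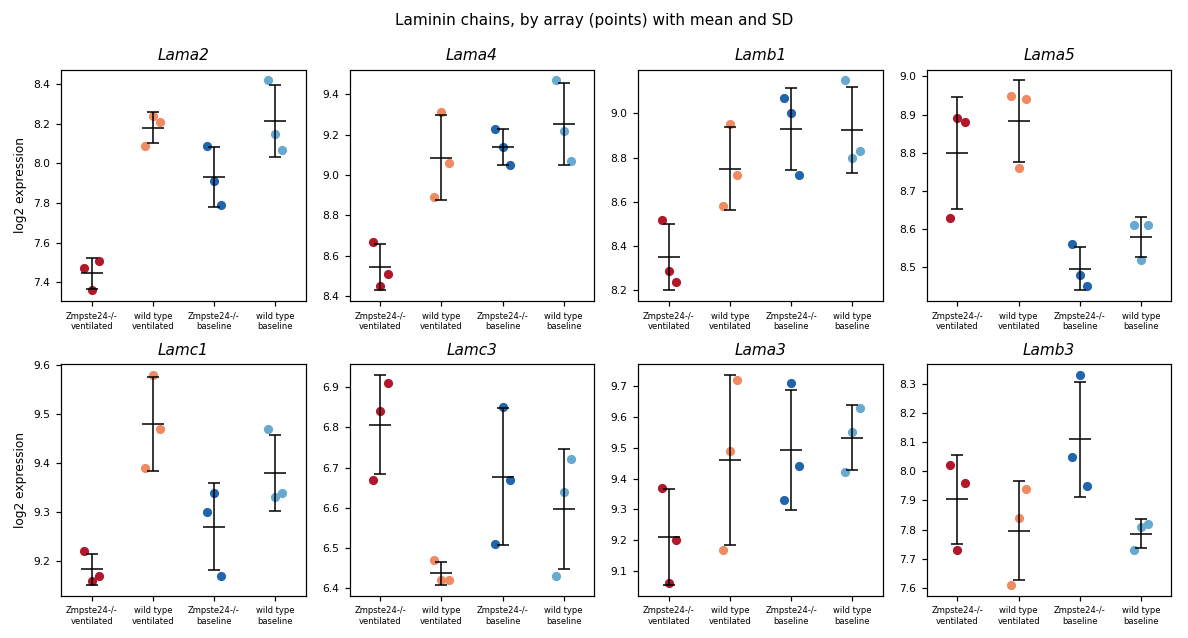
Log2 expression (vertical axis, own scale for each gene) of 8 laminin genes on each array (points, 3 per group) with group mean and SD (bars), groups in the order Zmpste24-/- ventilated, wild type ventilated, Zmpste24-/- baseline, wild type baseline. The ventilated Zmpste24-/- arrays were the lowest for Lama2, at 7.36 to 7.51, and Lama4, at 8.45 to 8.67, whereas Lama3 and Lamb3 passed in no comparison.

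The 14 genes that passed in no comparison included hemidesmosome and epithelial chains: Itga6 and Itgb4, which form the hemidesmosome integrin, Itga3, the laminin receptor chain of alveolar epithelium, and Lama3 and Lamb3. The others were Itga2b and Itgb3 of platelets, Itgb1, Itgb8, Itga11, Itgad, Itgb2l, Lama1 and Lamb2. Their log2 differences in the 4 pairwise comparisons ran from -0.29 to 0.32, and their smallest adjusted p was 0.115. Itgb4, the partner of Itga6, stood at 7.07, 7.24 and 7.28 in ventilated Zmpste24-/- lungs, 7.33, 6.9 and 7.13 in ventilated wild type lungs, 7.36, 7.05 and 6.96 in Zmpste24-/- baseline and 6.98, 7.03 and 7.01 in wild type baseline lungs, with overlapping groups. Itgb8, the other beta chain known for TGF-beta activation, differed by 0.08 ± 0.16 with ventilation in Zmpste24-/- lungs and 0.31 ± 0.16 in wild type lungs, with 95% intervals of -0.28 to 0.43 and -0.04 to 0.66. Lamb3 was at 8.05, 8.33 and 7.95 in Zmpste24-/- baseline lungs, against 7.73, 7.81 and 7.82 in wild type baseline lungs, without overlap, and its difference missed the threshold (0.32 ± 0.12, adjusted p = 0.125).

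Several ligand genes of these receptors also passed. Of 26 measured integrin ligands 6 rose and 1 fell with ventilation in Zmpste24-/- lungs, and 5 rose and 3 fell in wild type lungs, where 16.4% and 7.2% of all genes passed. Thbs1, which encodes a matricellular ligand that also activates TGF-beta, rose by 2.71 ± 0.19 in Zmpste24-/- (adjusted p = 1.75e-06) and 1.70 ± 0.19 in wild type lungs (adjusted p = 0.000219). Icam1, the endothelial and epithelial counter-receptor of the Itgal and Itgam products, rose by 0.93 ± 0.08 and 0.46 ± 0.08 in Zmpste24-/- and wild type lungs. Ccn1, which encodes a matricellular ligand of several integrins, rose by 1.52 ± 0.22 in Zmpste24-/- lungs (adjusted p = 0.000356) and differed by 0.19 ± 0.22 in wild type lungs. The 3 ligand genes that fell in wild type lungs were the growth factor gene Tgfb3 (-0.44 ± 0.09, adjusted p = 0.0118), Npnt, which encodes nephronectin, the ligand of the Itga8 product (-0.39 ± 0.09, adjusted p = 0.0248), and Vtn, which encodes vitronectin, the ligand of the Itgb5 product (-0.57 ± 0.14, adjusted p = 0.0227). Against wild type lungs, 4 ligand genes were higher and 3 lower in Zmpste24-/- lungs under ventilation, and 0 were higher and 6 lower at baseline, where 10.8% and 6.31% of all genes passed. Under ventilation Icam1 was higher (0.48 ± 0.08), and Jam3, which encodes a junctional ligand of the Itgam product, and Ltbp1, which encodes a binding protein of latent TGF-beta, were lower (-0.63 ± 0.11 and -0.42 ± 0.09). Jam3 averaged 4.08 in ventilated Zmpste24-/- and 4.71 in ventilated wild type lungs, under the array medians, so the true size of its difference may differ. The 3 genes that fell with ventilation in wild type lungs were among those lower in Zmpste24-/- lungs at baseline. Tgfb3 was lower by -0.59 ± 0.09, Npnt by -0.50 ± 0.09 and Vtn by -0.68 ± 0.14 (adjusted p = 0.00283, 0.00724 and 0.0104). Wild type baseline arrays enter both the ventilation and the genotype differences of these genes. List medians in the order of these 4 comparisons were 0.04, -0.07, -0.25 and -0.37.

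Inside the cell, 21 measured genes of focal adhesions and integrin activation gave 5 higher and 2 lower with ventilation in Zmpste24-/- lungs, and 1 higher and 1 lower in wild type lungs, beside 16.4% and 7.2% of all genes. Vcl, which encodes the actin-linking adaptor vinculin, rose by 0.61 ± 0.08 in Zmpste24-/- lungs (adjusted p = 0.000277) and was lower in Zmpste24-/- lungs at baseline (-0.40 ± 0.08, adjusted p = 0.0136). The adaptor gene Tns3 fell in Zmpste24-/- and wild type lungs (-0.83 ± 0.10 and -0.80 ± 0.10). The actin crosslinker gene Actn4 rose in both (0.45 ± 0.08 and 0.31 ± 0.08). For genotype, 0 were higher and 2 lower under ventilation, and 0 higher and 2 lower at baseline, beside 10.8% and 6.31% of all genes, so these small counts and the wild type one lie near the background. Fermt3, the kindlin gene of blood cells, was lower in both conditions (-0.40 ± 0.11 and -0.46 ± 0.11, adjusted p = 0.0342 and 0.0239). The part of leukocyte number in the result for Fermt3 was not tested. Itgb1bp2 was lower under ventilation (-0.39 ± 0.12, adjusted p = 0.0498). Of 20 basement membrane and hemidesmosome partners of laminin, 2 rose and 0 fell with ventilation in Zmpste24-/- lungs, 1 rose and 1 fell in wild type lungs, and 1 was higher and 1 lower in Zmpste24-/- lungs under ventilation and also at baseline. That is 2 of 20 in each comparison, beside 16.4%, 7.2%, 10.8% and 6.31% of all genes. Nid1, which encodes the link between laminin and collagen IV, rose by 0.53 ± 0.15 in Zmpste24-/- lungs (adjusted p = 0.0273). Tinagl1, which encodes a secreted matrix glycoprotein, was higher in all 4 comparisons, by 0.77 ± 0.09 and 0.41 ± 0.09 with ventilation in Zmpste24-/- and wild type lungs and by 0.75 ± 0.09 and 0.39 ± 0.09 for genotype under ventilation and at baseline. Ntn4, which encodes a netrin that binds laminin, fell with ventilation in wild type lungs (-0.30 ± 0.07), Dst, a hemidesmosome plakin gene, was lower in Zmpste24-/- lungs under ventilation (-0.42 ± 0.09), and Hspg2, which encodes perlecan, was lower at baseline (-0.37 ± 0.09). No member of these 3 lists passed for the interaction in limma. The lists were described by counts, and the genes named from them were picked by smallest adjusted p among those that passed.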

How the data were processed

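Gene expression was measured on one-colour Affymetrix arrays from whole lung of 12 mice. The authors deposited normalized log2 values for 41345 probes. Per the submitters' processing notes, the tools were RMA and limma, with versions not given in the sources used here. That the values are on a log2 scale follows from their span and near-equal medians. Of the probes, 23521 are paired with 1 gene symbol in the platform annotation, and the probe with the highest mean represented each of 22180 genes. All 36 members kept their symbol in a RefSeq table (GRCm38.p6). No low-value filter was set.

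Values were not normalized again. limma 3.58.1 in R 4.3.3 fitted 1 mean per group to all 12 arrays (8 residual degrees of freedom), for 5 contrasts, with Benjamini-Hochberg adjustment of p over the 22180 genes of a contrast. The fit was tested on simulated data. For 1 gene, 3 arrays against 3 allow an exact permutation p of 0.1 at the lowest. The number of arrays limits the precision. The labels give no scan batch. Figures were drawn with matplotlib 3.10.9.

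The members, the 3 pathway lists and the marker lists were chosen with earlier results of these data known. Array values were given for members that passed in a contrast or are the obligate partner of one that did. From each pathway list, up to 3 genes with the smallest adjusted p among those that passed in a contrast are named. Alternatives were a filter on low genes, 2 other scalings, the compared groups alone, averaged probes, another variance model, a replicate block and leaving out each array.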

Additional observations from a re-analysis of the deposited data

How the results depend on the processing

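None of the 39 calls of integrin and laminin genes changed direction under the alternatives. Differences that did not pass, and pathway and marker genes, were not recomputed. Of the 39 calls, 21 held in every alternative tried, and 74 of 740 recomputed values missed the threshold. The call of Itgae counts among the 21, but the filter on low genes left Itgae out, so it was not tried there. With the 2 compared groups fitted alone, the count for ventilation in wild type lungs became 2 in place of 5 (923 genes in all passed in place of 1597), and Itga7, Itgb5 and Itgb6 missed the threshold (adjusted p = 0.0543, 0.0661 and 0.0668), as did Itgb2 and Itgb7 for genotype at baseline (0.0537 and 0.118), Itgax for genotype under ventilation (0.0601) and Lama5 for ventilation in Zmpste24-/- lungs (0.0546). That fit has fewer residual degrees of freedom.

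With 1 array left out, 8 to 13 genes passed for ventilation in Zmpste24-/- lungs and 2 to 6 in wild type lungs, 8 to 14 for genotype under ventilation and 5 to 9 at baseline, and 0 to 0 for the interaction. The wild type count was 2 without wild type baseline array 1 and 3 without array 3. The baseline genotype count was 5 without wild type baseline array 1 or Zmpste24-/- baseline array 3. The count under ventilation was 8 without wild type ventilated array 2 and 9 without Zmpste24-/- ventilated array 2 or 3.

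The interaction count over all genes was 70 and became 152 with low genes left out, 26 under quantile normalization, 112 with the other variance model and 43 with the replicate block, with no integrin or laminin gene in any. Same-numbered arrays correlated at -0.13 to 0.15 in their deviations from group means. With 3 arrays per group, these correlations cannot show whether the numbers mark a shared batch or pairing. With the replicate block the counts were 11, 5, 13 and 8 for ventilation in Zmpste24-/- and wild type lungs and genotype under ventilation and at baseline. Itgax for genotype under ventilation and Lama5 for ventilation in Zmpste24-/- lungs then missed the threshold (adjusted p = 0.0511 and 0.0544). Not every array correlated best with its own number (1, 2, 3 and 5 of 6 in the same order).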
